A study of Mus musculus with 3 samples.

Results

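The genes described here are 8 parts of the machinery that edits or senses double-stranded RNA: Adar and Adarb1, the genes of the editing enzymes ADAR1 and ADAR2; Ifih1, Ddx58 and Dhx58, the genes of the RIG-I-like receptors MDA5, RIG-I and LGP2; Mavs, the gene of their shared adaptor; Eif2ak2, the gene of the kinase PKR; and Tlr3, the gene of an endosomal receptor. They were chosen by symbol, and all 8 were found among the 32285 features of the deposited table, with 1 feature each. Their transcripts were followed by droplet single-cell RNA sequencing of livers from male C57BL/6 mice aged 9 weeks. The 3 libraries were labelled by Adar1 genotype as flox/flox, wt/flox and wt/wt, with 1 library each, and every group, the wt/wt library included, was Ifih1-/- and Alb-Cre+. Cre was driven by the promoter of albumin, which is active in hepatocytes and not in the blood-derived, endothelial and stellate cells of the liver. The labels do not say how many animals went into a library or which exons are floxed. Livers were perfused with collagenase, spun at low speed, treated to lyse red cells and purified on Percoll, steps that favour hepatocytes.

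ADAR1 converts adenosines to inosines in double-stranded RNA, which keeps the cell's own duplexes from being read as foreign. MDA5 and RIG-I bind double-stranded RNA in the cytosol and signal through MAVS on mitochondria, which leads to interferon production; LGP2 lacks the signalling domains of the other receptors and modulates them. PKR is activated by double-stranded RNA and phosphorylates eIF2-alpha, which reduces translation, and TLR3 reads double-stranded RNA taken up into endosomes. Several of these genes, Adar, Ifih1, Ddx58, Dhx58 and Eif2ak2 among them, are also known to be induced by interferon, whereas Mavs is not a classical interferon-stimulated gene. ADAR1 is made in a long interferon-inducible form, p150, and a shorter form, p110, from different start sites of the same gene.

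Promoter sequences from RefSeq (GRCm38.p6, the sequence of mm10) are shown for Ifih1, for the members with a RefSeq entry and more transcript in the library labelled flox/flox, and for Mavs, which had no more there. RefSeq entries were matched for 7 of the 8 genes, all but Dhx58. The motifs searched on both strands were GAAANNGAA, close to the core of the interferon-stimulated response element; the same motif with 1 more A at its end, which is the longer motif below and of which every match also holds the first; and GAAANGAAA, with 1 base between the repeats, which was added after the promoters had been read. Each window below runs from 100 bases before to 50 bases after the annotated start, 5′ to 3′ on the gene's strand, with matches in capitals. The first 2 lines are an internal start of Adar and 1 of its upstream starts, given as chr3:89730618-89730767 and chr3:89714922-89715071 on the plus strand. Ddx58 lies at chr4:40239776-40239925 on the minus strand, Eif2ak2 at chr17:78882523-78882672 on the minus strand, Ifih1 at chr2:62646206-62646355 on the minus strand, Tlr3 at chr8:45410331-45410480 on the minus strand and Mavs at chr2:131233963-131234112 on the plus strand.
Adar internal start: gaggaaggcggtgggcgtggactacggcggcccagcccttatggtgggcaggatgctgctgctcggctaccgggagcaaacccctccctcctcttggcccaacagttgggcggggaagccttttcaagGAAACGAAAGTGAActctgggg
Adar upstream start: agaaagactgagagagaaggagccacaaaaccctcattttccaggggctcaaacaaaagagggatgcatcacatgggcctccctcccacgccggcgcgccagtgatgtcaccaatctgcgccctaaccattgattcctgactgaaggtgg
Ddx58: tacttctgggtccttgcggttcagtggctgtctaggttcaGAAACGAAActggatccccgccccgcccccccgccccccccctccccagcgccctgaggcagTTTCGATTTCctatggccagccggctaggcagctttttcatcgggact
Eif2ak2: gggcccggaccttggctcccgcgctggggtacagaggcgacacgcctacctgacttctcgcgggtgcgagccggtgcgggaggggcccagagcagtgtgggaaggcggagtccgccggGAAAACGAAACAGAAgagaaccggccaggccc
Ifih1: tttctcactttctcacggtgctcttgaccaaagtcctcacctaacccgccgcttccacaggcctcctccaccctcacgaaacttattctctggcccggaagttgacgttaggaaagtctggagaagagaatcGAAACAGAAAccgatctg
Tlr3: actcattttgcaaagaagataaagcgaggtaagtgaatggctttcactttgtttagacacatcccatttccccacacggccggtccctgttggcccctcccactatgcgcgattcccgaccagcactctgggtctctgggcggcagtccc
Mavs: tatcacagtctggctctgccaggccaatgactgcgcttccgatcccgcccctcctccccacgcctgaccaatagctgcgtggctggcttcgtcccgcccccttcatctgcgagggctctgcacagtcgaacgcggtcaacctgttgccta

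Over the whole promoter windows of 300 bases, 250 before and 50 after the start, the longer motif was found for Ddx58, Eif2ak2 and Ifih1, 3 of the 7 genes with a promoter. The longer motif was found in 3.44% of all 32851 windows. The shorter GAAANNGAA was found for those 3 genes and for Adar, and in 8.56% of all windows. GAAANGAAA was found for Adar and Ddx58, and in 3.17% of all windows. At the internal start of Adar, GAAANGAAA at positions 29 to 37 after the annotated start overlapped GAAANNGAA at positions 34 to 42, so that the capitals form 1 run. In Ddx58 the match to the longer motif lay on the reverse strand at positions 3 to 12 and GAAANGAAA lay 60 to 52 bases before the start. In Eif2ak2 and Ifih1 the longer motif stood at positions 19 to 28 and 33 to 42 after the start. These letters were not in the windows of Mavs, Tlr3 and Adarb1. A match of letters is a description and was not tied to any binding measurement. On GRCm38 with GENCODE M21 the genes span chromosome 3, 89715022 to 89753446 (Adar); chromosome 10, 77290726 to 77418270 (Adarb1); chromosome 2, 62595798 to 62646255 (Ifih1); chromosome 4, 40203773 to 40239828 (Ddx58); chromosome 11, 100694884 to 100704271 (Dhx58); chromosome 2, 131234063 to 131248025 (Mavs); chromosome 17, 78852564 to 78882573 (Eif2ak2); and chromosome 8, 45395665 to 45411080 (Tlr3).

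The libraries labelled flox/flox, wt/flox and wt/wt held 10000 barcodes each, with 10756790, 10067929 and 9744380 UMIs, and 9772, 9920 and 9878 barcodes were kept. Kept barcodes had median UMI counts of 932, 898.5 and 853, and median mitochondrial shares of 7.05%, 4.07% and 4.86%. Hepatocyte-like barcodes numbered 7831, 7349 and 8253, with Alb detected in 100% of them in each library, and free hepatocyte RNA made up an estimated 38.7% or more of the UMIs of every other class. Between pairs of libraries 32 (flox/flox and wt/wt), 27 (flox/flox and wt/flox) and 20 (wt/flox and wt/wt) barcode sequences were shared. With 1 library per genotype no test was possible, and every interval below is a 95% counting interval: it covers neither the spread between animals nor that between libraries. A level is the UMIs of a gene as its share of all UMIs of the class in that library, written as CPM, and a ratio is a log2 ratio of CPM. A gene was called measured in a class with at least 20 UMIs over the 3 libraries, and higher or lower when it passed 1.5-fold. The libraries also held hepatocyte-like barcodes of different clusters. Clusters 2 (led by Cyp2a4 and Slc39a4) and 3 (led by Ifit3, Ifit1 and Rsad2) made up 28.8% and 28.1% of them in the library labelled flox/flox, clusters 5 and 4 (both led by Mup17) 24.7% and 18.3% in that labelled wt/flox, and clusters 1 (led by Hamp2) and 8 (led by Fabp5) 33.5% and 22.6% in that labelled wt/wt.

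Adar, the targeted gene, had 292, 124 and 81 UMIs in hepatocyte-like barcodes of the libraries labelled flox/flox, wt/flox and wt/wt, or 35.4 CPM (31.4 to 39.7), 17.3 CPM (14.4 to 20.6) and 10.3 CPM (8.22 to 12.9). The level was highest where both alleles were said to be floxed, and none of the 3 intervals overlapped. The tags are 3′ tags, the annotated protein-coding transcripts of Adar end at 89751406 or 89753446, and a tag outside the deleted exons would not show a deletion, so that the value neither checks the genotype nor shows an intact gene. For that reason each library is named below by its label. Barcodes with an Adar UMI made up 3.63%, 1.65% and 0.981% of the hepatocyte-like class at median depths of 904, 863 and 825 UMIs. As a background for such shares, Cd3e, a T cell gene, was detected in 0.0128%, 0% and 0.0121% of the same barcodes, and Clec4f, a Kupffer cell gene, in 0.472%, 0.313% and 0.388%.

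Ifih1, which all mice were labelled as lacking, had 0, 1 and 0 UMIs among all barcodes of the libraries labelled flox/flox, wt/flox and wt/wt, the single UMI being in a hepatocyte-like barcode. In that class the upper limits of its level were 0.447, 0.777 and 0.471 CPM. Ifih1 was therefore at or near 0 under all 3 labels, and no ratio is given for it.

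**Figure D1:**
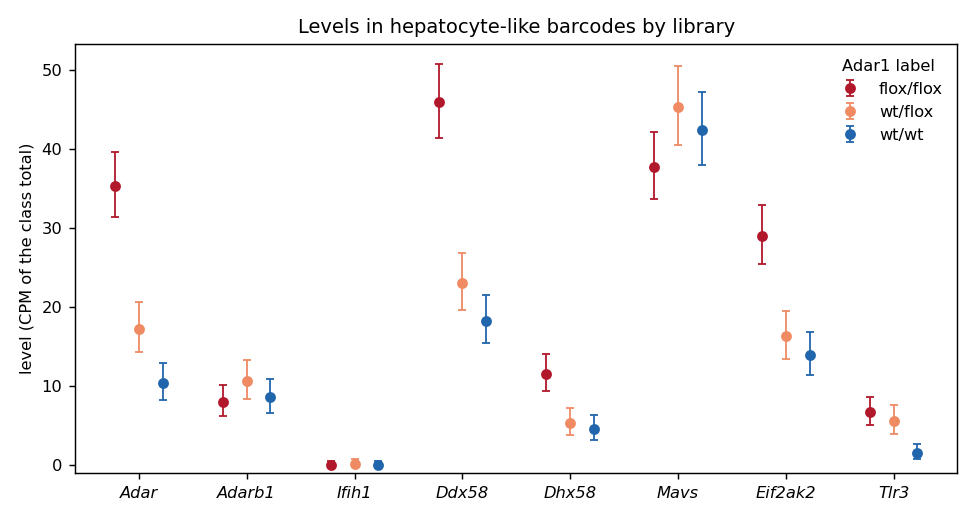
Levels of the 8 genes in hepatocyte-like barcodes, in CPM of the class total on a linear axis, with points for the libraries labelled flox/flox, wt/flox and wt/wt and bars for 95% counting intervals. Adar, Ddx58, Dhx58 and Eif2ak2 stood highest in the library labelled flox/flox with intervals apart from both others, Mavs and Adarb1 had overlapping intervals, and Ifih1 was at 0 or 1 UMI.

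Among the 7 measured genes, 5 were at least 1.5-fold higher in flox/flox over wt/wt (Adar, Ddx58, Dhx58, Eif2ak2 and Tlr3) and 0 were lower. Of all 11356 measured genes of the class, 14.3% were at least 1.5-fold higher in this comparison and 7.44% lower. Against the library labelled wt/flox, 4 of the 7 were higher in that labelled flox/flox (the same genes without Tlr3) and 0 lower, beside 13.4% and 9.77% of all measured genes. The library labelled wt/flox had 2 of the 7 higher than that labelled wt/wt (Adar and Tlr3) and 0 lower, beside 9.95% and 6.96% of all genes. The median log2 ratio of all genes was 0.08, 0.04 and 0.04 in these 3 comparisons, which share libraries and are not independent of each other.

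Of the editing enzymes, Adar and Adarb1 did not move together. For Adar, flox/flox over wt/wt gave 1.77 (1.41 to 2.15), flox/flox over wt/flox 1.03 (0.73 to 1.35), and wt/flox over wt/wt 0.74 (0.32 to 1.16). Adarb1, whose product edits chiefly transcripts of the nervous system, had 66, 76 and 67 UMIs, or 7.996 CPM (6.18 to 10.2), 10.6 CPM (8.35 to 13.3) and 8.56 CPM (6.63 to 10.9). Its 3 intervals overlapped, and its ratio of flox/flox over wt/wt was -0.10 (-0.61 to 0.41). The ratio of Adar lay 1.87 (1.23 to 2.51) above that of Adarb1 in the same comparison. Set among all measured genes, 98.4% had a lower ratio of flox/flox over wt/wt than Adar and 34.1% a lower one than Adarb1.

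The 2 RIG-I-like receptor genes still present, Ddx58 and Dhx58, stood above both other libraries in that labelled flox/flox by similar ratios. Ddx58 had 379, 165 and 143 UMIs in the libraries labelled flox/flox, wt/flox and wt/wt, or 45.9 CPM (41.4 to 50.8), 23.0 CPM (19.6 to 26.8) and 18.3 CPM (15.4 to 21.5). The first interval lay above the other 2, which overlapped. Its ratios were 1.33 (1.05 to 1.62) against wt/wt and 1.00 (0.73 to 1.27) against wt/flox. Dhx58 had 95, 38 and 36 UMIs, or 11.5 CPM (9.31 to 14.1), 5.30 CPM (3.75 to 7.27) and 4.60 CPM (3.22 to 6.37), with the same order of intervals. Its ratios were 1.32 (0.76 to 1.92) and 1.12 (0.56 to 1.70). The ratio of Adar differed from those of Ddx58 and Dhx58 by 0.44 (-0.02 to 0.92) and 0.45 (-0.25 to 1.14) in flox/flox over wt/wt, differences whose intervals include 0.

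Mavs, the adaptor of RIG-I and MDA5, differed little between the libraries. It had 312, 325 and 332 UMIs in the libraries labelled flox/flox, wt/flox and wt/wt, or 37.8 CPM (33.7 to 42.2), 45.3 CPM (40.5 to 50.5) and 42.4 CPM (38.0 to 47.2). Its ratio of flox/flox over wt/wt was -0.17 (-0.39 to 0.06), with an upper bound under 1.5-fold, and that over wt/flox was -0.26 (-0.49 to -0.03). That last ratio was 0.03 after each barcode had been thinned to 1000 UMIs. Adar stood 1.94 (1.51 to 2.38) above Mavs in flox/flox over wt/wt, 1.29 (0.91 to 1.69) in flox/flox over wt/flox and 0.64 (0.17 to 1.13) in wt/flox over wt/wt.

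Eif2ak2, the PKR gene, was the member with the smallest of the higher ratios. It had 239, 117 and 109 UMIs, or 29.0 CPM (25.4 to 32.9), 16.3 CPM (13.5 to 19.5) and 13.9 CPM (11.4 to 16.8), in the libraries labelled flox/flox, wt/flox and wt/wt. The interval of the library labelled flox/flox lay above the other 2, which overlapped. Its ratios were 1.06 (0.72 to 1.40) against wt/wt and 0.83 (0.50 to 1.16) against wt/flox, and the ratio of Adar over wt/wt exceeded it by 0.72 (0.22 to 1.22).

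Tlr3 had the same order of the libraries with other gaps. It had 55, 40 and 12 UMIs, or 6.66 CPM (5.02 to 8.67), 5.57 CPM (3.98 to 7.59) and 1.53 CPM (0.792 to 2.68), in the libraries labelled flox/flox, wt/flox and wt/wt. The libraries labelled flox/flox and wt/flox overlapped and both lay above that labelled wt/wt. Its ratio was 2.12 (1.20 to 3.16) for flox/flox over wt/wt, 0.26 (-0.36 to 0.88) for flox/flox over wt/flox and 1.86 (0.90 to 2.93) for wt/flox over wt/wt. In the last comparison 99.2% of all measured genes and 33 of 34 measured genes of the type I interferon list had a lower ratio, and the ratio of Adar was lower than that of Tlr3 by 1.12 on the log2 scale (difference -1.12, interval -2.27 to -0.06). Both ratios to wt/wt rest on few UMIs. That of wt/flox was 0.85 (14 and 8 UMIs) in barcodes of at least 1000 UMIs and 0.78 (10 and 6 UMIs) after thinning to 1000, and that of flox/flox was 1.37 (-0.01 to 2.99; 19 and 6 UMIs) after thinning, an interval that includes 0.

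Barcodes of at least 2000 UMIs, 366, 110 and 121 in the libraries labelled flox/flox, wt/flox and wt/wt, gave other values for several members, with 4 of them measured. Adar was at 1.12 for flox/flox over wt/wt (26 and 4 UMIs) and at -0.15 for wt/flox over wt/wt (3 and 4 UMIs). Ddx58 was at 0.94 (46 and 8 UMIs) for flox/flox over wt/wt and 1.67 (46 and 4 UMIs) for flox/flox over wt/flox, and Mavs at 0.41 (36 and 9 UMIs) and 0.32 (36 and 8 UMIs). Those with fewer UMIs were Dhx58, at 0.41 (12 and 2 UMIs) and 0.15 (12 and 1 UMIs), Tlr3, at -0.85 (5 and 1 UMIs) and -1.12 (5 and 0 UMIs), and Adarb1, at -0.85 (5 and 3 UMIs) and -1.53 (5 and 4 UMIs), with counts under 3 set to 3. At this minimum Dhx58 was under 1.5-fold and Tlr3 had the opposite sign to that of the whole class. Both came from setting counts under 3 to 3, and not from the UMIs as counted.

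**Figure D2:**
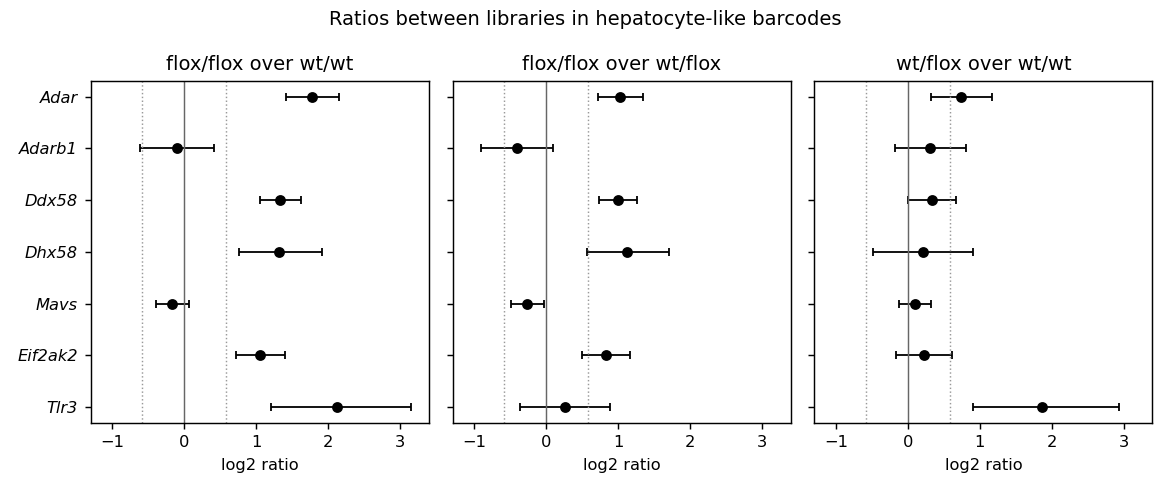
Log2 ratios of the 7 measured genes in hepatocyte-like barcodes for flox/flox over wt/wt, flox/flox over wt/flox and wt/flox over wt/wt, with 95% counting intervals; the solid line marks no difference and the dotted lines 1.5-fold. Adar lay past 1.5-fold in each panel, Ddx58, Dhx58 and Eif2ak2 in the first 2, Tlr3 in the first and last, and Mavs and Adarb1 in none.

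The difference in Adar was seen inside single hepatocyte-like clusters as well as over the class. In cluster 7, led by nuclear transcripts such as Neat1, Adar stood at 69.4, 35.5 and 14.3 CPM (78, 35 and 17 UMIs) in the libraries labelled flox/flox, wt/flox and wt/wt, and this cluster held similar shares of the class, 12.1%, 12.4% and 13.7%. Its ratio of flox/flox over wt/wt there was 2.28 (1.51 to 3.13). In cluster 2 Adar stood at 29.4, 8.28 and 10.5 CPM (73, 6 and 8 UMIs), in cluster 5 at 40.4, 16.3 and 15.1 CPM (21, 28 and 9 UMIs), and in cluster 8 at 29.9, 16.9 and 8.46 CPM (30, 20 and 16 UMIs). Of 6 clusters with at least 20 Adar UMIs over the pair, 5 were at least 1.5-fold higher in flox/flox over wt/wt, each with an interval above 0. The exception was cluster 3, the one led by interferon-stimulated genes, at 28.4, 7.81 and 20.98 CPM with 62, 2 and 3 UMIs, where the ratio over wt/wt was 0.44 (-1.18 to 2.76). For wt/flox over wt/wt, of 5 clusters 2 were at least 1.5-fold higher and 2 at least 1.5-fold lower, between -0.86 and 1.32. Of the lower ones, cluster 4 had 20 and 0 UMIs, and its negative ratio of -0.65 came from the 0 set to 3. Cluster 1 had 3 and 24 UMIs, with an interval of -3.24 to 0.86. Only 1 of the 5 intervals lay above 0, so that no shared direction could be read.

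Inside clusters the other members differed among themselves. Ddx58 was at least 1.5-fold higher in flox/flox over wt/wt in 7 of 7 clusters, between 0.88 and 2.94, with 6 intervals above 0. Eif2ak2 was so in 6 of 6 clusters, between 0.69 and 2.11, with 3 intervals above 0. Mavs was at least 1.5-fold higher in 0 of 7 clusters and lower in 1, between -0.67 and 0.50, and in cluster 7 it stood at 60.5, 42.6 and 42.8 CPM. Dhx58 passed the minimum in 3 clusters, of which 2 were higher and 1 lower, between -0.93 and 1.52, with 0 intervals above 0. The lower one was cluster 3, with 24 and 3 UMIs and an interval of -2.65 to 1.44, which includes 0. Adarb1 passed the minimum in 3 clusters, of which 0 were higher and 1 lower, between -0.67 and 0.21. Tlr3 passed it in 1 cluster, at 1.18 with an interval that included 0. The same barcodes were used to form the clusters, and none of the members was among the 10 leading genes of a hepatocyte-like cluster.

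**Figure D3:**
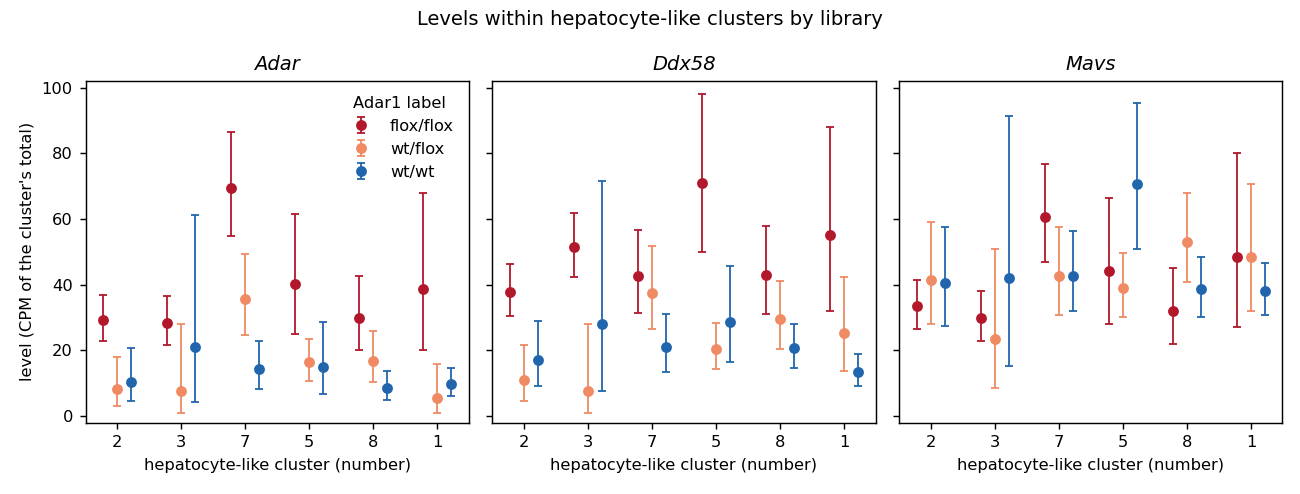
Levels of Adar, Ddx58 and Mavs, in CPM of the cluster's total, in 6 hepatocyte-like clusters, with points for the libraries labelled flox/flox, wt/flox and wt/wt and bars for 95% counting intervals. Adar and Ddx58 stood highest in the library labelled flox/flox in each of the 6 clusters shown, with wide intervals for wt/wt in cluster 3, while Mavs had no fixed order.

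Markers of other cell types were present in hepatocyte-like barcodes at low levels that differed between the libraries, not in the same order for each type. The 12 Kupffer cell markers, with 0 of them at 0 in any library, summed to 36.1, 22.3 and 30.3 CPM in the libraries labelled flox/flox, wt/flox and wt/wt, and RNA of that class at this level would carry 2.06, 0.503 and 0.508 of the Adar UMIs. The 12 endothelial markers, again with 0 at 0, summed to 34.0, 31.2 and 27.5 CPM and would carry 2.25, 0.615 and 0.646 Adar UMIs. The 11 monocyte markers summed to 28.7, 20.3 and 15.3 CPM, with 3 (Chil3, F13a1 and Itgam), 3 (Chil3, F13a1 and Fcgr1) and 4 (Ccr2, S100a4, F13a1 and Fcgr1) at 0, and would carry 0.449, 0.143 and 0.123 Adar UMIs. The 12 stellate markers summed to 21.8, 23.4 and 29.1 CPM, with 1 (Des), 1 (Col1a1) and 0 at 0. RNA of the mixed stellate and endothelial class at this level would carry 1.86, 0.778 and 0.593 Adar UMIs. The 9 T cell markers summed to 1.33, 0.557 and 1.53 CPM, with 2, 7 and 5 at 0, and would carry 0.335, 0 and 0 Adar UMIs. These estimates take the profile of each class as measured, stand beside 292, 124 and 81 Adar UMIs in all, and the part of such RNA in the Adar ratios was not tested. For Tlr3 the Kupffer class would carry 0.546, 0.359 and 0.290 UMIs and the monocyte, macrophage or dendritic class 0.513, 0.178 and 0.308 UMIs, against 55, 40 and 12.

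Members were also set against interferon-stimulated transcripts barcode by barcode, after each barcode had been thinned to 1000 UMIs, which left 2906, 2314 and 2377 hepatocyte-like barcodes in the libraries labelled flox/flox, wt/flox and wt/wt and left out 4925, 5035 and 5876 shallower ones. The interferon list held none of the members. In barcodes with 0 interferon UMIs, Adar stood at 92.3 CPM (12 UMIs in 130 barcodes), 26.2 CPM (9 in 344) and 9.22 CPM (6 in 651). In barcodes with 1 it stood at 49.3, 15.7 and 15.3 CPM, and in those with 2 or more at 39.1, 23.2 and 6.38 CPM (95, 31 and 6 UMIs). The library labelled flox/flox thus had the highest level in each of these groups of barcodes, and its ratio over wt/wt in barcodes with no interferon UMI was 3.32 (1.80 to 5.02). Within that library Adar was lower in barcodes with 2 or more interferon UMIs than in those with none, at -1.24 (-2.11 to -0.24), from 12 UMIs in the smaller group; in the libraries labelled wt/flox and wt/wt the same ratio was -0.17 (-1.28 to 1.08) and -0.53 (-2.43 to 1.37). For Ddx58 these within-library ratios were -0.44, 0.76 and 0.39, and for Eif2ak2 -0.14, 1.04 and -0.65, all with intervals that include 0. The makeup of these groups by cluster was not tested.

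Along the axis of the liver lobule, members showed no difference that counting error left standing. The same thinned barcodes, without the shallower ones left out above, were split by whether pericentral or periportal genes were the more abundant. Adar stood at 40.7, 20.4 and 13.5 CPM (38, 29 and 15 UMIs) in pericentral-high barcodes of the libraries labelled flox/flox, wt/flox and wt/wt, and at 43.6, 23.5 and 7.11 CPM (86, 21 and 9 UMIs) in periportal-high ones. The ratio of flox/flox over wt/wt was 1.59 (0.70 to 2.56) in the pericentral-high and 2.62 (1.63 to 3.79) in the periportal-high barcodes. Mavs stood at 49.3, 43.0 and 45.9 CPM and at 38.5, 38.1 and 37.1 CPM. Within a library the interval of the pericentral over periportal ratio included 0 for each member with UMIs on both sides, the nearest to exceptions being Ddx58 in the library labelled flox/flox at -0.58 (-1.21 to 0.01) and Eif2ak2 in that labelled wt/flox at -0.85 (-1.75 to 0.03).

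In barcodes outside the hepatocyte-like class, Adar was also higher in the library labelled flox/flox. Over all other kept barcodes (1941, 2571 and 1625) it had 142, 82 and 40 UMIs in the libraries labelled flox/flox, wt/flox and wt/wt, or 61.3, 29.1 and 22.1 CPM. The ratio was 1.47 (0.95 to 2.01) over wt/wt, 1.07 (0.67 to 1.48) over wt/flox and 0.39 (-0.17 to 0.98) for wt/flox over wt/wt. Eif2ak2 (142, 74 and 51 UMIs) had a ratio of 1.12 (0.65 to 1.61) over wt/wt, Ddx58 (155, 95 and 77 UMIs) 0.65 (0.25 to 1.06) and Tlr3 (45, 42 and 14 UMIs) 1.32 (0.43 to 2.31). Dhx58, with 38, 29 and 18 UMIs, had 0.72 (-0.13 to 1.61). Mavs was lower in the library labelled flox/flox, at 25.9, 44.7 and 38.8 CPM (60, 126 and 70 UMIs) and a ratio of -0.58 (-1.10 to -0.06) against wt/wt and -0.79 (-1.26 to -0.33) against wt/flox. Adarb1 stood at 15.1, 18.5 and 32.1 CPM (35, 52 and 58 UMIs), with a ratio of -1.09 (-1.74 to -0.46) to wt/wt. The classes pooled here differ in number between libraries. Endothelial-like barcodes, which carry most Adarb1 UMIs outside hepatocytes, numbered 205, 486 and 447, and erythroid-like ones 7, 288 and 40. Of the 126 Mavs UMIs in the library labelled wt/flox, 11 came from erythroid-like barcodes and 12 from a cluster left unnamed. The part of these differences in the Adarb1 and Mavs ratios was not tested.

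Kupffer-like barcodes (298, 302 and 219), the resident macrophages of the liver, gave values for 6 members. Adar had 34, 14 and 7 UMIs there, or 92.0, 38.5 and 27.1 CPM, with ratios of 1.77 (0.57 to 3.18) against wt/wt and 1.26 (0.32 to 2.27) against wt/flox. Free hepatocyte RNA, estimated at 38.7%, 46.4% and 47.2% of the UMIs of this class, would carry 13.7, 8.02 and 4.88 of these CPM. Ddx58 had 29, 13 and 8 UMIs, with a ratio of 1.34 (0.18 to 2.68) to wt/wt, and Eif2ak2 25, 14 and 5 UMIs, with 1.81 (0.40 to 3.55). Dhx58 had 15, 10 and 6 UMIs and Mavs 16, 25 and 15, with ratios over wt/wt of 0.81 (-0.64 to 2.46) and -0.42 (-1.53 to 0.70). In all, 5 of 6 measured members were at least 1.5-fold higher than in the library labelled wt/wt, beside 19% of the 6716 genes measured in the class. The ratio of Adar over wt/wt in hepatocyte-like barcodes differed from that in Kupffer-like ones by 0.01 (-1.46 to 1.28).

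In T or natural killer-like barcodes (590, 511 and 329), Adar had 32, 18 and 4 UMIs, or 52.6, 34.8 and 11.6 CPM, and a ratio of 2.18 (0.68 to 4.14) against wt/wt and 0.60 (-0.28 to 1.52) against wt/flox. Free hepatocyte RNA, at 55.6%, 66.1% and 65.4% of the UMIs, would carry 19.7, 11.4 and 6.76 of these CPM. Ddx58 (54, 22 and 15 UMIs) and Eif2ak2 (30, 13 and 4 UMIs) had ratios over wt/wt of 1.02 (0.18 to 1.96) and 2.08 (0.58 to 4.05), so that 3 of 4 measured members were higher, beside 20.5% of the 7477 genes measured there. The Eif2ak2 ratio was 0.26 (16 and 7 UMIs) where classes were taken from each barcode's own markers. Mavs had 10, 24 and 7 UMIs and a ratio of -1.50 (-2.73 to -0.38) over wt/flox; its levels in the libraries labelled flox/flox and wt/wt, 16.4 and 20.4 CPM, lay under the 21.01 and 27.7 CPM that free hepatocyte RNA would carry.

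Among other classes, endothelial-like barcodes held 14, 13 and 14 Adar UMIs, or 64.3, 25.0 and 29.3 CPM in the libraries labelled flox/flox, wt/flox and wt/wt. The ratio was 1.14 (-0.04 to 2.31) against wt/wt and 1.36 (0.16 to 2.57) against wt/flox, and 4 of 6 measured members were at least 1.5-fold higher than in the library labelled wt/wt, beside 16.8% of 7406 genes. In the cluster with both stellate and endothelial markers (101, 147 and 193 barcodes) Adar stood at 116, 45.3 and 26.9 CPM (14, 8 and 6 UMIs), with a ratio of 2.11 (0.64 to 3.77), while Ddx58 (9, 6 and 19 UMIs) had -0.19 (-1.52 to 1.02). The Ddx58 ratio in hepatocyte-like barcodes lay 1.52 (0.26 to 2.88) above that one. In monocyte, macrophage or dendritic-like barcodes (302, 260 and 95), 3 of 5 measured members were higher, beside 20.5% of 6262 genes. Eif2ak2 stood at 94.5, 61.9 and 30.4 CPM (41, 21 and 4 UMIs), with a ratio of 1.64 (0.17 to 3.58). Adar had 21, 8 and 2 UMIs and Ddx58 25, 9 and 1, so that both ratios over wt/wt rest on a count set to 3. B or plasma-like barcodes had 15, 7 and 3 Adar UMIs, with a ratio of 1.75 (-0.07 to 4.18). Plasmacytoid dendritic-like barcodes had 8, 4 and 4 Adar UMIs, or 35.9, 33.7 and 57.9 CPM with wide overlapping intervals, and neutrophil-like ones 0, 3 and 0 UMIs, so that no change of Adar could be read there at this depth.

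**Figure D4:**
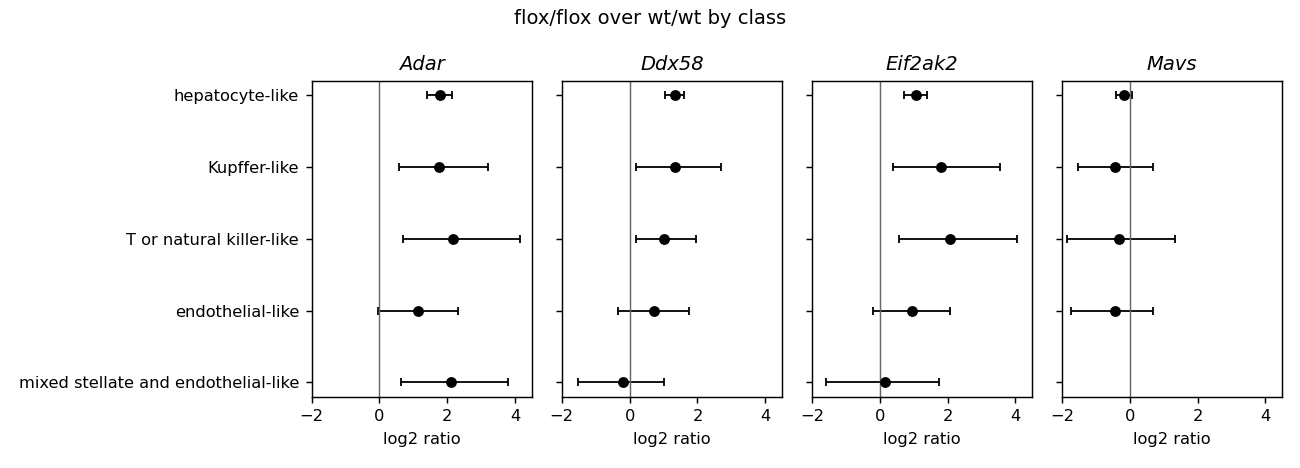
Log2 ratios of flox/flox over wt/wt for Adar, Ddx58, Eif2ak2 and Mavs in 5 classes, with 95% counting intervals and a line at no difference. Adar lay above the line in each class shown, with an interval that reached 0 in endothelial-like barcodes, while the Mavs intervals included 0 in each of the 4 classes where it was measured.

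Across classes, the level of Adar in the library labelled flox/flox ran from 116 CPM in the mixed stellate and endothelial-like cluster and 92.0 CPM in Kupffer-like barcodes, through B or plasma-like (71.7 CPM), endothelial-like (64.3 CPM), T or natural killer-like (52.6 CPM) and monocyte, macrophage or dendritic-like barcodes (48.4 CPM), to plasmacytoid dendritic-like (35.9 CPM) and hepatocyte-like ones (35.4 CPM). Neighbours in this order overlapped in their intervals. Adarb1 stood at 55.1, 59.7 and 89.9 CPM (12, 31 and 43 UMIs) in endothelial-like barcodes of the libraries labelled flox/flox, wt/flox and wt/wt, and at 66.3, 34.0 and 35.9 CPM (8, 6 and 8 UMIs) in the mixed stellate and endothelial-like cluster. In hepatocyte-like barcodes it was at 7.996, 10.6 and 8.56 CPM, with intervals apart from those of the endothelial-like class in all 3 libraries. The endothelial ratio of Adarb1 for flox/flox over wt/wt was -0.71 (-1.77 to 0.24).

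Tlr3 came first in the monocyte, macrophage or dendritic-like class of each library, at 55.3, 29.5 and 38.0 CPM (24, 10 and 5 UMIs), with intervals that overlapped those of the next class. In the library labelled wt/flox that next class was the mixed stellate and endothelial-like one, at 28.3 CPM (5 UMIs). Kupffer-like barcodes had 24.4, 27.5 and 15.5 CPM (9, 10 and 4 UMIs), and endothelial-like ones 23.0, 23.1 and 8.36 CPM (5, 12 and 4 UMIs). T or natural killer-like barcodes had 2, 3 and 0 UMIs, at or near the level that free hepatocyte RNA would give. A split chosen after these values were seen separated barcodes of the first class by a UMI of Xcr1 or Clec9a, markers of conventional type 1 dendritic cells, a cell type known for its Tlr3. Those with such a UMI had Tlr3 at 195, 178 and 117 CPM (12, 6 and 3 UMIs in 32, 18 and 15 barcodes), and those without at 32.2, 13.1 and 18.9 CPM (12, 4 and 2 UMIs in 270, 242 and 80 barcodes). Over the 3 libraries this was 174 CPM (108 to 266) with and 23.0 CPM (13.6 to 36.3) without. Eif2ak2 did not follow the split, at 74.5 CPM (34.1 to 141) with and 72.8 CPM (55.1 to 94.3) without.

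**Figure D5:**
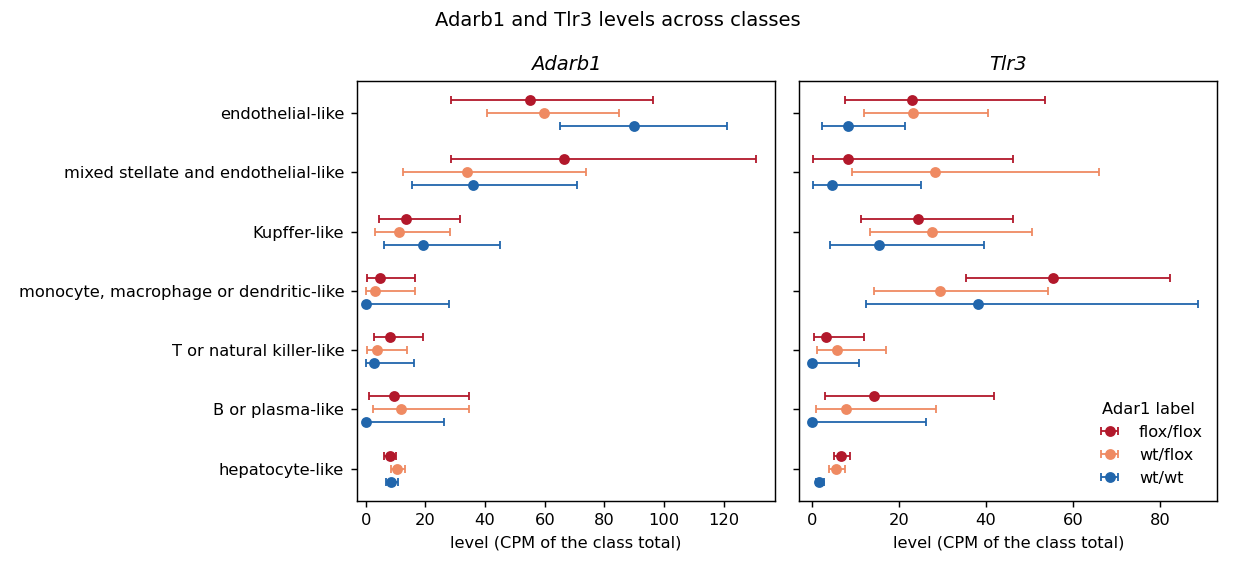
Levels of Adarb1 and Tlr3 in CPM of the class total across 7 classes, with points for the libraries labelled flox/flox, wt/flox and wt/wt and bars for 95% counting intervals. Adarb1 stood highest in the endothelial-like and the mixed stellate and endothelial-like barcodes, at 34.0 to 89.9 CPM. Tlr3 stood highest in monocyte, macrophage or dendritic-like barcodes, at 29.5 to 55.3 CPM. Its intervals there overlapped those of the mixed, Kupffer-like, endothelial-like and B or plasma-like barcodes.

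Genes around the members were followed in lists, each described by its counts in hepatocyte-like barcodes. They stand beside the shares of all measured genes given above, 14.3% higher and 7.44% lower for flox/flox over wt/wt, 13.4% and 9.77% for flox/flox over wt/flox, and 9.95% and 6.96% for wt/flox over wt/wt. The shares higher over wt/wt among the adaptors and kinases, the receptor regulators and the PKR genes were near that of all genes. Of 12 measured genes of A-to-I editing and its partners, 3 were at least 1.5-fold higher in flox/flox over wt/wt and 0 lower, with a median of 0.15; over wt/flox it was 1 and 0, with 0.27, and in wt/flox over wt/wt 1 and 0, with 0.23. Those higher included Adar and Adat1, a tRNA adenosine deaminase (32, 21 and 20 UMIs in the libraries labelled flox/flox, wt/flox and wt/wt). Dhx9, a helicase that binds ADAR1, had 470, 330 and 361 UMIs and a ratio of 0.30 over wt/wt. Among 15 adaptors and kinases of the RIG-I-like receptors, 2 were higher over wt/wt (Irf7, an interferon-induced transcription factor, with 801, 125 and 72 UMIs, and Traf5, with 24, 28 and 14) and 0 lower, with a median of 0.13. Over wt/flox 1 was higher and 1 lower, with 0.04, and in wt/flox over wt/wt 3 and 0, with 0.10. Tbk1, the kinase below MAVS, had 221, 182 and 206 UMIs, and its substrate Irf3 318, 250 and 306.

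Of 24 measured regulators of the receptors, 4 were higher and 1 lower over wt/wt, with a median of 0.11; over wt/flox 3 and 4, with 0.11; and in wt/flox over wt/wt 1 and 0, with 0.03. The higher ones were Trim25 and Rnf135, ubiquitin ligases that activate RIG-I (730, 418 and 443 UMIs, and 77, 38 and 48), Zc3hav1 and Ddx60 (199, 44 and 22 UMIs, with a ratio of 1.97 to wt/flox). The lower one was Rnf5 (378, 548 and 559 UMIs), and Rnf125, a ligase that restrains RIG-I, had 640, 930 and 869 UMIs, with ratios of -0.52 to wt/wt and -0.74 to wt/flox. The endosomal Toll-like receptor list had 2 of 9 higher and 0 lower over wt/wt, with a median of 0.36, 3 and 0 over wt/flox, with 0.32, and 1 and 2 in wt/flox over wt/wt, with 0.03. Besides Tlr3 it held Unc93b1, the chaperone that brings these receptors to endosomes (128, 69 and 65 UMIs; ratios of 0.90 and 0.69), and Ticam1, the adaptor of TLR3 (111, 54 and 113 UMIs; -0.10 over wt/wt and 0.84 over wt/flox).

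The PKR list of 12 genes had 2 higher over wt/wt, Eif2ak2 and Eif2ak3 (77, 49 and 37 UMIs), the gene of the endoplasmic reticulum kinase PERK, and 1 lower, Tarbp2 (82, 101 and 117 UMIs), a PKR inhibitor, with a median of 0.10. Over wt/flox it had 1 and 0, with 0.01, and in wt/flox over wt/wt 0 and 0, with 0.22. Targets of the integrated stress response, which follows phosphorylation of eIF2-alpha, were mixed: of 20 measured, 7 were higher and 2 lower over wt/wt, with a median of 0.19, and 11 higher and 1 lower over wt/flox, with 0.65. In wt/flox over wt/wt 2 were higher and 7 lower, with -0.10. Ddit3 had 132, 59 and 73 UMIs, Trib3 86, 18 and 44, Fgf21 40, 1 and 13, and Nupr1 37, 13 and 3. Gdf15, with 323, 93 and 489 UMIs, was higher than in the library labelled wt/flox and lower than in that labelled wt/wt, at 1.59 and -0.67. Atf4 itself had 703, 741 and 625 UMIs.

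Other antiviral RNA sensors and effectors were higher as a group: 15 of 18 measured over wt/wt with 0 lower and a median of 2.54, 12 and 0 over wt/flox with 1.60, and 10 and 0 in wt/flox over wt/wt with 0.65. Oasl2 had 174, 6 and 5 UMIs, with ratios of 5.04 and 4.66, Oas1a had 76, 5 and 1 UMIs and Oas1g 56, 0 and 0. Those that did not pass were Dicer1 (388, 309 and 317 UMIs), Skiv2l (179, 206 and 217 UMIs) and Shfl, at 0.22, -0.35 and 0.12 over wt/wt. The type I interferon response list, which shares Oasl2, Oas1a and others with the antiviral list and none with the members, had 33 of 34 measured genes higher and 0 lower over wt/wt, with a median of 1.83; 28 and 0 over wt/flox, with 1.43; and 18 and 1 in wt/flox over wt/wt, with 0.65. The ratio of Adar over wt/wt was above those of 16 of the 34, that of Tlr3 above 18, those of Ddx58 and Dhx58 above 13 each, and that of Eif2ak2 above 7. In flox/flox over wt/flox the ratio of Tlr3 was above 0 of the 34 and that of Adar above 12. In other classes the list had 28 of 34 measured genes higher over wt/wt in Kupffer-like barcodes, with a median of 1.39, beside 19% of all genes there. It had 21 of 31 in T or natural killer-like barcodes, with 1.29, beside 20.5%, and 28 of 29 in endothelial-like barcodes, with 1.72, beside 16.8%.

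Interferon genes themselves were almost undetected in hepatocyte-like barcodes: Ifnk had 0, 3 and 0 UMIs, Ifng 1, 0 and 0, and the other listed interferon genes 0 in each library. Of the interferon list 5 receptor genes were measured, of which 1 was higher over wt/wt, 2 over wt/flox and 0 in wt/flox over wt/wt, with 0 lower in each and medians of 0.48, 0.48 and -0.02. Ifngr1 had 97, 51 and 58 UMIs, Ifnar1 141, 137 and 152, and Ifnar2 523, 326 and 352. The zonation lists used for the split by lobule axis differed between libraries too. Of 12 pericentral genes, 3 were higher and 1 lower over wt/wt (median 0.02), 0 and 3 over wt/flox (-0.25), and 4 and 0 in wt/flox over wt/wt (0.48). Of 12 periportal genes, 4 were higher and 1 lower over wt/wt (0.25), 3 and 0 over wt/flox (0.26), and 1 and 2 in wt/flox over wt/wt (0.13).

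Lastly, genes were ranked by likeness to each member across 27 sums, 9 classes in each of 3 libraries, by Pearson's r of log2(CPM + 10) over 9886 genes with at least 100 UMIs. The points share libraries, free hepatocyte RNA and depth, and the values are a description. Adar was most like Pan3 (0.84), Pold3 (0.83), Trip12 (0.79), Stat2 (0.79) and Ubn2 (0.79). Adarb1 was most like Efnb1 (0.92), Tfpi (0.92), Ntn4 (0.91), Ldb2 (0.91) and Epas1 (0.91), with Epas1 and Tfpi known as endothelial genes. Dhx58 was most like Arl6ip1 (0.80), Mtr (0.80), Dtx3l (0.76), Plekhb2 (0.76) and Irf7 (0.73), and Tlr3 most like Tnfsf13 (0.84), Tmem51 (0.81), Cxcl16 (0.79), Vhl (0.79) and Stard9 (0.78). For Ddx58, Mavs and Eif2ak2 the closest genes were Rab5a (0.76), Mpg (0.77) and Eps15l1 (0.77). Between members, Adar and Eif2ak2 had 0.59 and Eif2ak2 and Tlr3 0.58. Their order depended on the measure: with 1 added in place of 10 they had 0.51 and 0.60, and by Spearman's rho 0.70 and 0.54.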

How the data were processed

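The deposited file holds whole UMI counts for each gene in each barcode, written by Cell Ranger 6.1.1 per the file headers. Seurat and mm10 are named in the submitters' processing notes. How the 10000 barcodes per library were selected is not given in the sources used here. The library of a barcode was read from its suffix, which matches the sample numbers in the labels. Kept barcodes had 500 or more UMIs, 250 or more genes and a mitochondrial share of no more than 40%; doublets were kept and no doublet caller was run. Clustering used scanpy 1.11.5 with igraph 0.11.9, 2000 variable genes, 30 components, 15 neighbours and Leiden resolution 1, without integration. A cluster was named from 3 or more listed markers that were 4-fold above other barcodes and seen in 5% of its own, with either 1 among its 10 leading genes or 10 such markers in all. Clusters with hepatocyte markers and no others were called hepatocyte-like; droplets holding only free hepatocyte RNA would be among them. These naming limits were set with the data in hand. The 9 classes with at least 50 barcodes in each library were compared.

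UMIs were summed per class and library (numpy 2.4.6, pandas 2.3.3) and given as CPM with exact Poisson intervals, shares with Clopper-Pearson intervals and log2 ratios with exact conditional binomial intervals (scipy 1.17.1), all at 95% and for counting error only. Counts under 3 were set to 3 in ratios. Free RNA was estimated from class markers. The ratio computation was tested on simulated data. Besides the members, the genes named were those with at least 50 UMIs at either end of each of the 11 lists by the smaller of the flox/flox ratios, up to 3 at each end, others of a list described as a whole, and up to 5 genes most like each member; some genes that this rule names are not reported here. Members, lists and computations were chosen with earlier results of these data known. Alternatives were other UMI and mitochondrial limits, resolutions, class definitions, scalings and folds, 0.5 added to counts, thinning to 1000 UMIs, leaving out shared barcodes and subtracting free RNA; leaving out the nuclear or the mitochondrial cluster was added after seeing the data. Resolution 0.5 merged Kupffer-like with monocyte clusters and gave fewer classes.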

Additional observations from a re-analysis of the deposited data

Results flagged for a closer look

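Members were detected in barcodes that the comparisons within classes leave out, above what a count of 0 allows. In the cluster that was left unnamed, which held T cell, natural killer and monocyte markers beside mitotic genes (35, 38 and 18 barcodes in the libraries labelled flox/flox, wt/flox and wt/wt), Adar had 4 UMIs (55.5 CPM) and Ddx58 had 6 (83.2 CPM) in the library labelled flox/flox. In that labelled wt/flox, Ddx58 had 4 UMIs (54.3 CPM) and Mavs 12 (163 CPM, 84.2 to 285), and in that labelled wt/wt Eif2ak2 had 4 (101 CPM). In erythroid-like barcodes, which numbered 7, 288 and 40, Adar had 4 UMIs, Ddx58 4 and Mavs 11 (38.2 CPM) in the library labelled wt/flox. In the barcodes dropped by the filters, 228, 80 and 122 in number, the library labelled flox/flox had 9 UMIs of Ddx58, 6 of Mavs and 5 of Eif2ak2, and that labelled wt/flox had 4 of Mavs (53.6 CPM). These counts are small, and no comparison was made with them alone. Those of the unnamed and erythroid-like clusters are part of the sums over all kept barcodes outside the hepatocyte-like class. The part of free hepatocyte RNA in these counts was not tested.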

How the results depend on the processing

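In hepatocyte-like barcodes the ratio of Adar kept its direction under 12 alternatives other than the minimum of 2000 UMIs, between 1.64 and 2.08 for flox/flox over wt/wt, 0.96 and 1.10 for flox/flox over wt/flox, and 0.58 and 1.10 for wt/flox over wt/wt. Under the same 12 Mavs lay between -0.31 and 0.03 for flox/flox over wt/wt, and with the minimum of 2000 UMIs at 0.41. The minimum of 2000 UMIs left 366, 110 and 121 hepatocyte-like barcodes in the libraries labelled flox/flox, wt/flox and wt/wt, and by that construction few UMIs. There 4 members were measured, against 7 in all hepatocyte-like barcodes. Of the 4, 3 were at least 1.5-fold higher in flox/flox over wt/wt and 0 in wt/flox over wt/wt. Adar was at 1.12 for flox/flox over wt/wt (26 and 4 UMIs) and, reversed, at -0.15 for wt/flox over wt/wt (3 and 4 UMIs). Tlr3 was at -0.85 for flox/flox over wt/wt (5 and 1 UMIs), where the negative sign comes from the 1 set to 3. With a minimum of 1000 UMIs, Adar in B or plasma-like barcodes was at -0.41 for flox/flox over wt/flox (3 and 2 UMIs). Its negative sign comes from the 2 set to 3. After thinning to 1000 UMIs 4 members were higher in wt/flox over wt/wt. With a fold of 2 in place of 1.5, 2 members were higher in flox/flox over wt/flox and 1 in wt/flox over wt/wt. Apart from the effects of fewer barcodes and of counts set to 3, the cause was not tested. Among values of other members and classes, 1060 moved by less than their counting interval, 21 moved by more and 2 reversed. The 2 counted as reversed were the Tlr3 and B or plasma-like values above, each with a count set to 3. Some values counted as moved also changed sign, and not all of these had a count set to 3. With the minimum of 2000 UMIs, wt/flox over wt/wt was -0.73 for Ddx58 (4 and 8 UMIs) and -0.32 for Eif2ak2 (4 and 6 UMIs). Adarb1 in the mixed stellate and endothelial-like cluster was then at -1.06 for flox/flox over wt/wt (4 and 6 UMIs). No paired analysis was possible because each genotype has 1 library, so that none could be left out either. Depth limits Tlr3, Dhx58 and all classes other than hepatocyte-like most.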
